A study of Mus musculus with 6 samples.

Results

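The genes described here are 32 genes of cholesterol synthesis, uptake and efflux and of the SREBP system that governs them, chosen by symbol from the 32061 genes of a count table. All 32 were found in the table by their Ensembl identifiers and all 32 passed the filter on low counts. RNA had been sequenced from 6 samples of biliary epithelial cells, the lining cells of mouse bile ducts. In 3 samples, called cilia depleted here, the cells had been given 4OHT and are labelled as depleted of primary cilia. In the other 3, called cilia competent, no 4OHT had been given and the label is competent. 4OHT commonly stands for 4-hydroxytamoxifen, which activates Cre recombinases built to depend on tamoxifen and is used that way to delete a gene. Both groups came from bile ducts picked out of digested liver, expanded as organoids (passages 4 to 5) before flat culture on collagen. The labels give no strain, age, deleted gene or Cre driver, and leave unstated whether samples within a group are separate animals or cultures. The p-values therefore cover the spread among these samples alone, and that spread may be technical. Treatment with 4OHT and loss of cilia cannot be told apart, since every depleted sample had both.

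Animal cells build cholesterol from acetyl-CoA by way of mevalonate, farnesyl diphosphate, squalene and lanosterol. When sterols in the endoplasmic reticulum are scarce, the escort protein Scap carries SREBP transcription factors to the Golgi, where they are cut and released to switch on synthesis and uptake genes. When sterols are plentiful, Insig proteins hold Scap back, and oxysterols activate the LXR receptors, which switch on cholesterol exporters. Several late enzymes, Ebp and Dhcr7 among them, are known to bind tamoxifen-like drugs, so synthesis, uptake and efflux were read separately.

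Depleted libraries held 26293486 to 36998935 counts, and competent libraries 32199606 to 36093068. Levels are in counts-per-million units of the TMM-scaled library (CPM), and changes are depleted over competent, tested across all genes with edgeR's quasi-likelihood test with Benjamini-Hochberg adjustment. A gene is said to have risen or fallen where its adjusted p was below 0.05. Wdr35, the deleted gene as far as is known of the study although no label names it, had 28.0 ± 1.60 CPM in depleted and 33.3 ± 1.98 CPM in competent cells (SD, n = 3 each), 1.19-fold lower with an adjusted p of 0.00245. Since reads were counted over all exons together, loss of an exon would not show, and the value is no check of the labels. The 12 biliary markers summed to 15629 to 17044 CPM in depleted and 16608 to 17603 CPM in competent samples. The keratin gene Krt8, their most abundant member, had 5194 CPM in depleted and 5429 CPM in competent cells and did not pass. Krt19, a defining biliary keratin, was low in both groups, at 8.33 ± 1.25 CPM in depleted and 12.5 ± 1.13 CPM in competent cells, a 1.49-fold fall (adjusted p = 0.000383). Of the 12, 4 rose, 6 fell and 2 were not called. The 10 hepatocyte markers summed to 237 to 275 CPM in depleted and 124 to 172 CPM in competent samples. Most of this was Apob, which rose 2.10-fold, while Alb, the defining marker, had 2.57 ± 0.39 CPM in depleted and 2.61 ± 0.718 CPM in competent cells and did not pass. The log2 change of Apob was 1.07, and 0.71 with a trend of transcript length removed. Cyp3a11 had no count, and Fgb fell 3.25-fold. The 8 stellate or fibroblast markers stayed at or below 3.88 CPM in sum, with Col1a2 and Col3a1 without a count, Col1a1 2.18-fold higher and Acta2 3.80-fold lower. The 6 endothelial markers, Pecam1 the most abundant over all samples, did not sum above 0.561 CPM in any sample. The 8 leukocyte markers summed to 45.5 to 51.3 CPM in depleted and 50.6 to 50.9 CPM in competent samples, most of it Csf1r. Only 2 of the 8 passed the filter on low counts, Cd68, 1.57-fold higher, and Csf1r, 1.09-fold lower. The Csf1r call (adjusted p = 0.0496) was lost with DESeq2 (adjusted p = 0.0971). Ptprc had 0.185 ± 0.116 CPM in depleted and 0.149 ± 0.0557 CPM in competent cells. The part of other cell types in the results was not tested.

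Of the 32 genes, 11 rose, 11 fell and 10 were not called. Over all 13839 genes tested, 34.9% rose and 34.3% fell, so the members were called about as often as genes at large, 68.8% against 69.2%. Their median log2 change was 0.02, beside -0.0057 for all genes tested. Insig1 alone changed more than 2-fold, upwards, while 7.38% of all genes rose and 2.49% fell by that much (9.87% in all). With upper-quartile scaling 8 members rose and 14 fell, and the counts over all genes moved the same way, with 4434 rises and 5236 falls, against 4832 and 4744 with TMM. Rises were found for the sterol sensor gene Insig1, for Srebf1, for the carrier gene Stard4, for the exporter gene Abca1, for the fatty acid enzyme genes Fasn and Acaca, and slightly for 5 synthesis enzymes. Falls were found for 7 synthesis enzymes, for Insig2 and Scap, for the lysosomal gene Npc2 and for the desaturase gene Scd2. In bulk RNA, fewer cells of a type and less RNA per cell cannot be told apart.

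**Figure D1:**
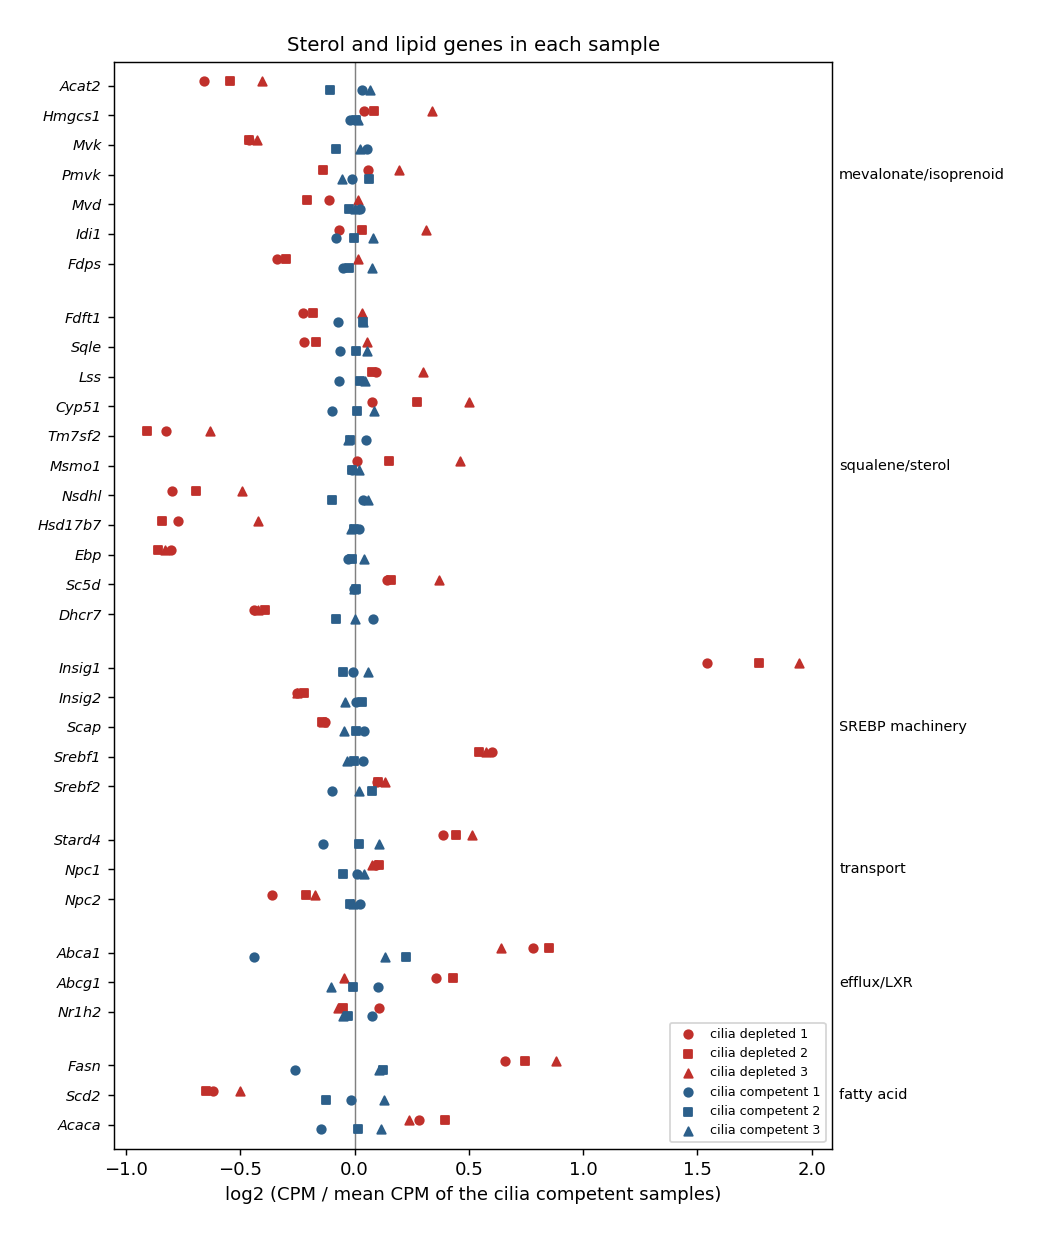
Each row is a gene and each point a sample, placed at the log2 ratio of its CPM to the mean CPM of the 3 cilia competent samples (red, cilia depleted; blue, cilia competent; circle, square and triangle, replicates 1, 2 and 3). Insig1 stands to the right at 3.39-fold in the fit, and Ebp, Tm7sf2, Hsd17b7 and Nsdhl stand furthest to the left. Among the synthesis genes the red triangle of depleted replicate 3 lies to the right of the other red points in 16 of 18 rows.

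Promoter letters are shown for 4 members, because binding motifs for SREBP and its partner factor NF-Y are the features usually shared by sterol genes. Insig1 and Hmgcs1 rose, Ebp and Mvk fell. Each stretch is 170 bases of GRCm38.p6, taken from RefSeq promoter windows and ending upstream of the gene start given by RefSeq and by GENCODE M21. They are written 5′ to 3′ on the gene's own strand, with capitals marking CCAAT or its reverse complement ATTGG, and the SREBP letters. Insig1 lies at chr5:28071193-28071362 (plus strand), Hmgcs1 at chr13:119690181-119690350 (plus strand), Ebp at chrX:8193513-8193682 (minus strand) and Mvk at chr5:114444099-114444268 (plus strand).
Insig1: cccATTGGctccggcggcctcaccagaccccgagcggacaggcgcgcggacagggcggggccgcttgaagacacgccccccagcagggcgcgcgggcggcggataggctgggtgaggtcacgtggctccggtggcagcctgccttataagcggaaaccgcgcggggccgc
Hmgcs1: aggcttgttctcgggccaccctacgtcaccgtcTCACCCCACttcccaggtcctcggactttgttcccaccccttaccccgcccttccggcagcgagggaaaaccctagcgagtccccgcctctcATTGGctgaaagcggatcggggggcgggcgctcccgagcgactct
Ebp: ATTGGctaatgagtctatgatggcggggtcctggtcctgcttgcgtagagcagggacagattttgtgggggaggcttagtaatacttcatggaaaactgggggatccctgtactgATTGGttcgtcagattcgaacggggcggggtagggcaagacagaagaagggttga
Mvk: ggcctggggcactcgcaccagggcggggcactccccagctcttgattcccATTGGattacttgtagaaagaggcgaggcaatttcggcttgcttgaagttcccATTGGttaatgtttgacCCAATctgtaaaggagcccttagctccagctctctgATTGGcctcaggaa

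RefSeq promoter windows, from 250 bases before to 50 bases after a start, were matched for 25 of the 32 members and for 27025 genes in all. The letters CCAAT, searched on both strands, were in a window of 20 of the 25 members (80%) and of 14 of the 15 matched synthesis genes (93.3%), against 41.1% of all genes. Risen and fallen members held them equally often, 8 of 10 each, so the letters did not separate the directions. The strict SREBP letters TCACNCCAC were found in 1 member, Hmgcs1, 137 bases upstream of its start, and in 1.44% of all genes. The LXR motif of the DR4 type, AGGTCA repeated after a spacer of 4 bases, was in 0 members and in 0.0148% of all genes. The motifs do not overlap each other in the printed stretches, and a match is a description of letters and not a binding site.

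The early, mevalonate and isoprenoid steps moved little. The test called 1 of 7 genes higher (14.3%), 2 lower (28.6%) and left 4 uncalled, against 34.9% and 34.3% of all genes. Their median log2 change was -0.10. Acat2 encodes the cytosolic thiolase that opens the pathway. It had 28, 30.3 and 33.4 CPM in depleted samples and 45.3, 41.1 and 46.3 CPM in competent samples, and was 1.44-fold lower (adjusted p = 1.01e-05). The groups did not overlap. However, 45.9% of the 50-base words of its main transcript also occur in other genes, its copy Acat3 and Tcp1, so its count is uncertain. Mvk encodes mevalonate kinase, and its depleted samples, at 16.3, 16.3 and 16.7 CPM, all lay below the competent samples at 23.3, 21.2 and 22.8 CPM. That is a 1.37-fold fall with an adjusted p of 2.37e-05.

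Hmgcs1, which encodes the synthase that makes HMG-CoA, was the synthesis gene of highest level per length in both groups. It had 274, 282 and 336 CPM in depleted samples and 262, 267 and 269 CPM in competent samples (log2 change 0.16, SE 0.065, adjusted p = 0.0382). All depleted values lay above all competent values, but most of the gap came from depleted replicate 3. Without that sample the log2 change was 0.07 (adjusted p = 0.196). The call was also lost without competent replicate 1, 2 or 3, at adjusted p of 0.0802, 0.0683 and 0.0764, where the log2 change was 0.15 to 0.17. Idi1, which encodes the isomerase of the isoprene units, had 109, 117 and 142 CPM in depleted and 108, 114 and 121 CPM in competent samples. Its groups overlapped and it did not pass (log2 change 0.11, adjusted p = 0.237), but it passed without depleted replicate 1 (log2 change 0.19, adjusted p = 0.0422). Of the 50-base words of Idi1, 30.5% occur in other genes, so its count is uncertain. The genes of the remaining mevalonate enzymes, Pmvk and Mvd, had log2 changes of 0.05 and -0.10 and did not pass.

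Fdps encodes farnesyl diphosphate synthase, at the branch point between sterols and other isoprenoids. It had 19, 19.5 and 24.3 CPM in depleted and 23.2, 23.6 and 25.3 CPM in competent samples (log2 change -0.19, adjusted p = 0.0577). Without depleted replicate 3 it was called lower (log2 change -0.32, adjusted p = 0.00144). Of its 50-base words 86.4% occur in other annotated genes, among them processed pseudogenes, so its count is uncertain too.

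The steps after farnesyl diphosphate moved in both directions, as genes at large did. Among 11 squalene and sterol genes there were 4 rises (36.4%), 5 falls (45.5%) and 2 genes not called, against 34.9% and 34.3% of all genes. Their median log2 change was -0.12. The 5 falls were the larger changes, 1.33-fold to 1.78-fold, against rises of 1.12-fold to 1.23-fold. All 5 falling genes act on the sterol rings after lanosterol has formed, but so do the risen genes Cyp51, Msmo1 and Sc5d. In each of the 5, every depleted sample lay below every competent sample, as in 7 of the 18 synthesis genes. In either direction the groups did not overlap for 22 of the 32 members (68.8%) and for 72.5% of all genes tested.

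Ebp encodes the sterol isomerase also known as the emopamil-binding protein (GRCm38 chromosome X, 8185329 to 8193512, minus strand). It had 35.5, 34.2 and 34.9 CPM in depleted samples and 60.8, 61.5 and 63.7 CPM in competent samples. This was the largest fall of the 32 genes, 1.78-fold (log2 change -0.83, SE 0.046, adjusted p = 3.67e-09), and the spread within either group was small beside it. Without depleted replicate 3 Tm7sf2 fell more (log2 change -0.86, against -0.83 for Ebp), and with the length trend removed Hsd17b7 and Scd2 did. Dhcr7, whose product makes cholesterol or its last precursor by reducing the B ring, had 17.1, 17.7 and 17.3 CPM in depleted and 24.5, 21.9 and 23.2 CPM in competent samples. The fall was 1.33-fold (adjusted p = 4.93e-05), again with no overlap.

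Tm7sf2 encodes a sterol reductase that acts just after the lanosterol demethylase. It had 10.6, 10 and 12.1 CPM in depleted and 19.4, 18.5 and 18.4 CPM in competent samples, a 1.72-fold fall (adjusted p = 1.11e-06). Its exons overlap those of Vps51 on the same strand, so its count is uncertain. Nsdhl and Hsd17b7 encode a dehydrogenase and a ketoreductase that together strip methyl groups from the A ring. Nsdhl had 22.9, 24.7 and 28.4 CPM in depleted and 40.9, 37.3 and 41.5 CPM in competent samples, a 1.57-fold fall (adjusted p = 3.52e-06). Hsd17b7 had 24.2, 23.1 and 30.9 CPM in depleted and 41.9, 41.3 and 41 CPM in competent samples, a 1.58-fold fall (adjusted p = 1.16e-05). For both, depleted replicate 3 was the highest depleted sample and still lay below every competent one.

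The 4 rises were Lss and Cyp51, upstream of all 5 falls, and Msmo1 and Sc5d, among them in pathway order. Cyp51, the lanosterol demethylase gene, had 177, 203 and 238 CPM in depleted and 157, 169 and 178 CPM in competent samples, 1.23-fold higher (adjusted p = 0.00689). Depleted replicate 1, at 177 CPM, lay below competent replicate 3. Msmo1 encodes the oxidase that opens methyl removal. It had 137, 151 and 187 CPM in depleted and 135, 135 and 138 CPM in competent samples (log2 change 0.22, adjusted p = 0.0311). Its call was lost without depleted replicate 3 (log2 change 0.08, adjusted p = 0.164) and without competent replicate 1, 2 or 3 (log2 change 0.21, 0.21 and 0.22, adjusted p of 0.0547, 0.0584 and 0.064). Sc5d, the sterol desaturase gene, was tighter, with 79, 79.8 and 92.3 CPM in depleted and 71.3, 71.8 and 71.4 CPM in competent samples, 1.17-fold higher (adjusted p = 0.00279).

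Lss, the lanosterol synthase gene, had 61.3, 60.6 and 70.6 CPM in depleted and 54.7, 58.3 and 59.3 CPM in competent samples (log2 change 0.16, adjusted p = 0.0312). The call was lost without competent replicate 1 (log2 change 0.13, adjusted p = 0.108) or depleted replicate 3 (log2 change 0.08, adjusted p = 0.174). Fdft1 and Sqle, the genes of squalene synthase and squalene epoxidase, had log2 changes of -0.12 and -0.11 and did not pass. Without depleted replicate 3 both were called lower, each with a log2 change of -0.20 (adjusted p = 0.00572 and 0.00395). Of the 50-base words of Fdft1, 30.7% occur in other genes, among them Ctsb on the opposite strand, so its count is uncertain.

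**Figure D2:**
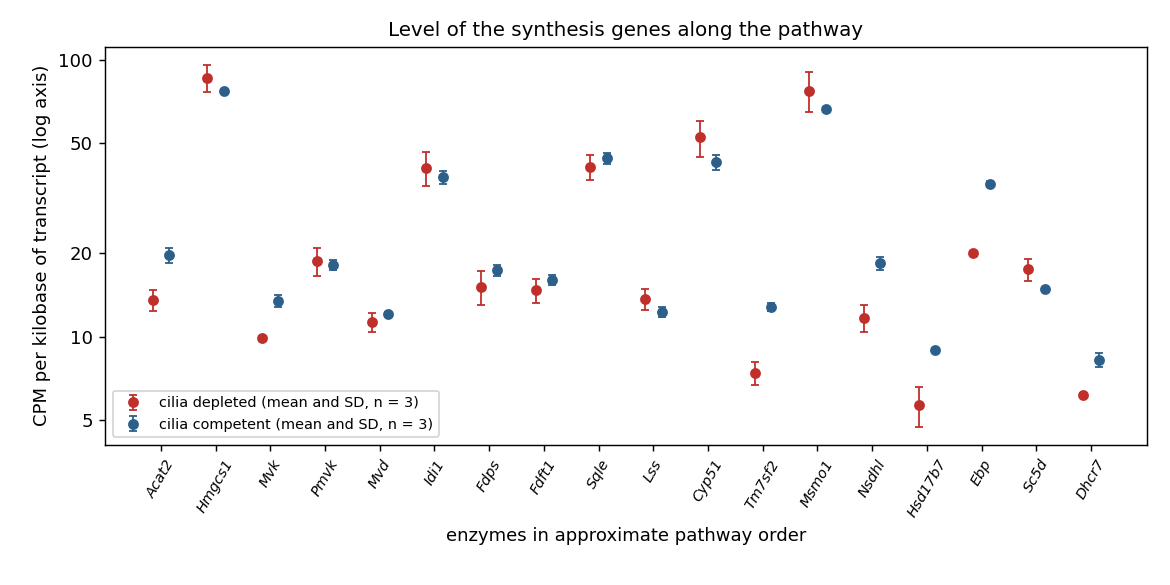
Mean level per kilobase of main transcript, on a log axis, of the 18 synthesis genes in approximate pathway order (red, cilia depleted; blue, cilia competent; bars, SD, n = 3 each; bars smaller than the point are hidden). Hmgcs1 at 85.9 and 76.7 CPM per kilobase is highest in both groups, and Tm7sf2, Nsdhl, Hsd17b7, Ebp and Dhcr7 lie clearly lower in depleted cells.

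Levels per length differed far more between enzymes than between groups. On the scale of CPM per kilobase of main transcript, Hmgcs1 stood at 85.9 ± 9.75 in depleted and 76.7 ± 1.14 in competent cells (SD, n = 3 each). Msmo1 followed with 77.3 ± 12.5 and 66.5 ± 0.751, within the depleted spread of Hmgcs1. The lowest synthesis enzymes were Hsd17b7, with 5.65 ± 0.911 in depleted and 8.97 ± 0.0942 in competent cells, and Dhcr7, with 6.17 ± 0.115 and 8.24 ± 0.454. These neighbours did not differ beyond their spread in depleted cells. Ebp held place 15 of the 32 genes in depleted and place 11 in competent cells. The exporter genes Abca1 and Abcg1 were the lowest of all 32 in both groups, at 1.57 and 0.770 in depleted and 0.927 and 0.642 in competent cells.

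The 3 depleted samples differed among themselves in these genes. Depleted replicate 3 had the highest CPM of its group for 16 of the 18 synthesis genes (88.9%), against 35.2% of all genes tested. The exceptions were Ebp and Dhcr7. Competent replicate 3 had the highest CPM of its own group for 10 of the 18 (55.6%), against 30.7% of all genes tested. The median coefficient of variation of the synthesis genes was 10.1% in depleted and 4.25% in competent samples, where all genes tested had 5.38% and 5.34%. Summed over the 18 genes, the level was 1208, 1268 and 1497 CPM in the depleted samples and 1282, 1308 and 1347 CPM in the competent samples. Without depleted replicate 3, 2 of the 18 genes rose and 10 fell, against 5 and 7 with it. All 7 falls were among the 10. Over all 13979 genes tested in that fit, 4697 rose and 4636 fell. With upper-quartile scaling 2 rose and 10 fell, as Hmgcs1, Lss and Msmo1 no longer passed (adjusted p of 0.13, 0.116 and 0.0792) and Fdps, Fdft1 and Sqle passed as falls (adjusted p of 0.019, 0.0281 and 0.0392). Without the filter on low counts Fdps and Fdft1 also passed as falls (adjusted p of 0.00888 and 0.048). With the trend of transcript length removed 2 of the 18 rose and 9 fell. Without competent replicate 1, 2 or 3 the number of rises was 2, 3 and 3, and the number of falls 7 each time. All genes tested in those fits gave 4651, 4661 and 4537 rises and 4595, 4671 and 4521 falls. Depleted replicate 3 was also the deepest library and depleted replicate 1 the shallowest, and the part of depth in this difference was not tested.

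The SREBP machinery held the largest change of the 32 genes. There were 2 rises and 2 falls among 5 genes (40% each), against 34.9% and 34.3% of all genes. The remaining gene was not called, and the median log2 change was 0.11. Insig1 (GRCm38 chromosome 5, 28071363 to 28078662, plus strand) encodes an anchor that keeps Scap in the endoplasmic reticulum, and is itself a known SREBP target. It had 9826, 14630 and 18170 counts in depleted samples and 4533, 4549 and 5238 counts in competent samples. Scaled, these were 389, 456 and 515 CPM in depleted and 133, 129 and 139 CPM in competent samples. All depleted samples lay far above all competent samples, and the rise was 3.39-fold (log2 change 1.76, SE 0.08, adjusted p = 5.01e-10). Without depleted replicate 3 the log2 change was 1.66.

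Insig2 encodes the related anchor, which is less tied to SREBP activity. It had 39.4, 40.2 and 39.4 CPM in depleted and 47.1, 48 and 45.6 CPM in competent samples, a 1.18-fold fall (adjusted p = 0.000407). Per kilobase, Insig1 stood at 168 ± 23.2 CPM in depleted and 49.5 ± 1.93 CPM in competent cells, and Insig2 at 14.7 ± 0.167 and 17.4 ± 0.444 CPM. Insig1 was thus the gene of highest level per length among the 32 in depleted cells and held place 5 in competent cells. Scap had 85.9, 84.9 and 85.3 CPM in depleted and 96.5, 94.2 and 90.8 CPM in competent samples, a small fall without overlap (log2 change -0.14, adjusted p = 0.00973).

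The genes of the SREBP factors themselves differed. Srebf1, whose protein mainly drives fatty acid genes, had 225, 216 and 221 CPM in depleted and 152, 148 and 145 CPM in competent samples. This was a 1.49-fold rise with little spread in either group (adjusted p = 4.27e-08). Srebf2, whose protein mainly drives cholesterol genes, had 378, 379 and 387 CPM in depleted and 330.2, 372 and 358 CPM in competent samples. The groups did not overlap, but the change was small and did not pass (log2 change 0.11, adjusted p = 0.0577). It passed with limma-voom (adjusted p = 0.0457), with a filter of at least 1 CPM in 3 samples (adjusted p = 0.0462) and without competent replicate 2 (log2 change 0.14, adjusted p = 0.0231). Whether the Srebf1 and Srebf2 changes differ from each other was not tested.

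Among the genes that move sterol within the cell, 1 of 3 rose, 1 fell and 1 was not called. Over all genes tested, 34.9% rose and 34.3% fell. Stard4 encodes a cytosolic sterol carrier and is a known SREBP target. It had 99.9, 104 and 109 CPM in depleted and 69.5, 77.4 and 82.3 CPM in competent samples, a 1.36-fold rise without overlap (adjusted p = 1.39e-05). Npc1 and Npc2 hand cholesterol out of the lysosome after lipoprotein uptake. Npc2 had 101, 112 and 115 CPM in depleted and 132, 128 and 129 CPM in competent samples, a 1.18-fold fall (adjusted p = 0.000582). Npc1 had 48.9, 49.4 and 48.3 CPM in depleted and 46.1, 44.3 and 47.1 CPM in competent samples and did not pass (log2 change 0.09, adjusted p = 0.0966).

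Among the efflux genes, Abca1 rose and Abcg1 and Nr1h2 did not pass. Abca1, which exports cholesterol to apolipoprotein A-I, had 412, 550 and 524 counts in depleted and 238, 394 and 392 counts in competent samples. These were 16.3, 17.1 and 14.8 CPM in depleted and 6.99, 11.1 and 10.4 CPM in competent samples. The groups did not overlap and the rise was 1.69-fold (log2 change 0.75, SE 0.13, adjusted p = 0.000198), although competent replicate 1 lay well below the other competent samples. Abcg1, which exports cholesterol to larger lipoproteins, had 4.79, 5.05 and 3.62 CPM in depleted and 4.02, 3.73 and 3.48 CPM in competent samples (log2 change 0.25, adjusted p = 0.137). Without depleted replicate 3 it was called higher (log2 change 0.40, adjusted p = 0.0221). Nr1h2, the gene of LXR-beta, differed by less than its spread, at 98.3 ± 6.86 CPM in depleted and 98.6 ± 4.89 CPM in competent cells (SD, n = 3 each).

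The fatty acid genes driven by SREBP moved in both directions. Fasn, the fatty acid synthase gene, had 280.2, 297 and 327 CPM in depleted and 148, 193 and 191 CPM in competent samples, a 1.70-fold rise (adjusted p = 2.94e-06). Acaca, the gene of acetyl-CoA carboxylase, had 65.3, 70.8 and 63.5 CPM in depleted and 48.6, 54.4 and 58.3 CPM in competent samples, 1.24-fold higher (adjusted p = 0.00086). Both had groups without overlap, and 52.6% of the 50-base words of Acaca occur in other genes, so its count is uncertain. Scd2, the stearoyl-CoA desaturase gene, had 439, 429.8 and 476 CPM in depleted and 666, 618 and 737 CPM in competent samples. It fell 1.5-fold (adjusted p = 1.86e-06), and in competent cells it was the gene of highest level per length of the 32, at 123 ± 11 CPM per kilobase, against 82.2 ± 4.52 in depleted cells.

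The libraries differed by transcript length, and so did the members. Protein-coding genes were cut into 5 equal classes of main transcript length. The median log2 change was -0.34 in the shortest class (204 to 1739 nt) and 0.25 in the longest (from 4972 nt). Across the 32 members, which share the same libraries, Spearman's rho between length and log2 change was 0.528, against 0.338 across 12793 protein-coding genes. Of the 8 members in the longest class 4 rose and 1 fell, and of the 4 in the shortest class 0 rose and 2 fell. With the trend removed from each library, 7 members rose and 13 fell, where 34% of all genes rose and 35.1% fell, 69% together. Of the original calls, 6 of 11 rises and all 11 falls remained.

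**Figure D3:**
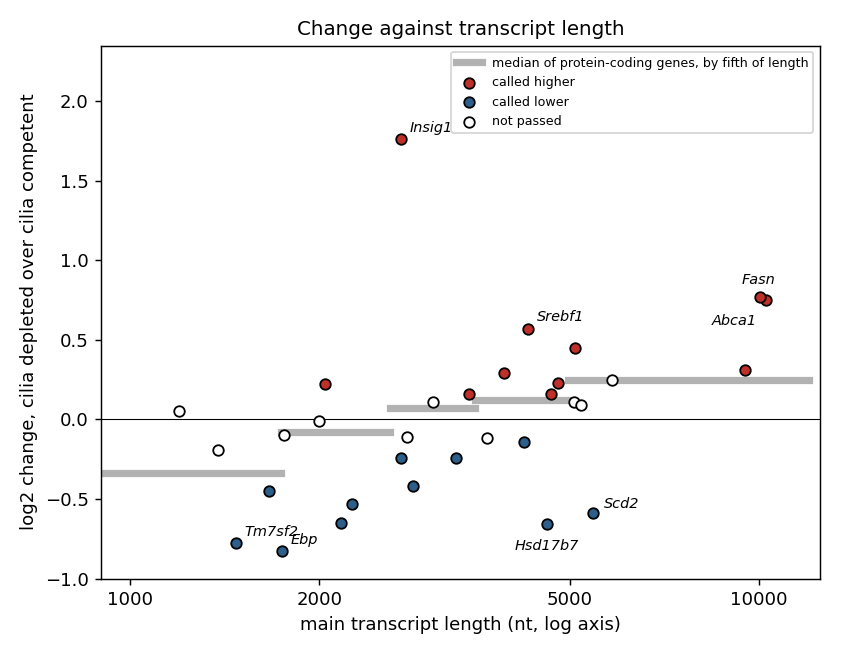
Log2 change (cilia depleted over cilia competent) of the 32 members against main transcript length on a log axis (red, called higher; blue, called lower; white, not passed), with grey bars at the median of all tested protein-coding genes in each of 5 length classes, drawn only within the axis. Short transcripts lie lower on both counts, from a median of -0.34 in the shortest class to 0.25 in the longest. Insig1, Hsd17b7 and Scd2 lie far from the grey bar of their length.

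With the length trend removed, the rises of Hmgcs1, Lss, Cyp51, Sc5d and Acaca no longer passed, at log2 changes of 0.06, 0.00, 0.17, 0.06 and 0.01. Msmo1 stayed higher at 0.30, and Pmvk, the phosphomevalonate kinase gene with the shortest transcript of the set, became a rise of 0.33 (adjusted p = 0.000929). Insig1 was barely moved, at 1.73, and Srebf1, Stard4, Abca1 and Fasn were higher by 0.43, 0.27, 0.44 and 0.46 on the log2 scale. The falls of Ebp, Tm7sf2, Nsdhl and Dhcr7 were -0.67, -0.55, -0.59 and -0.46. Those of Hsd17b7 and Scd2, both long transcripts, were larger than before, at -0.82 and -0.78. Fdft1 and Sqle passed as falls, at -0.23 and -0.14.

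**Figure D4:**
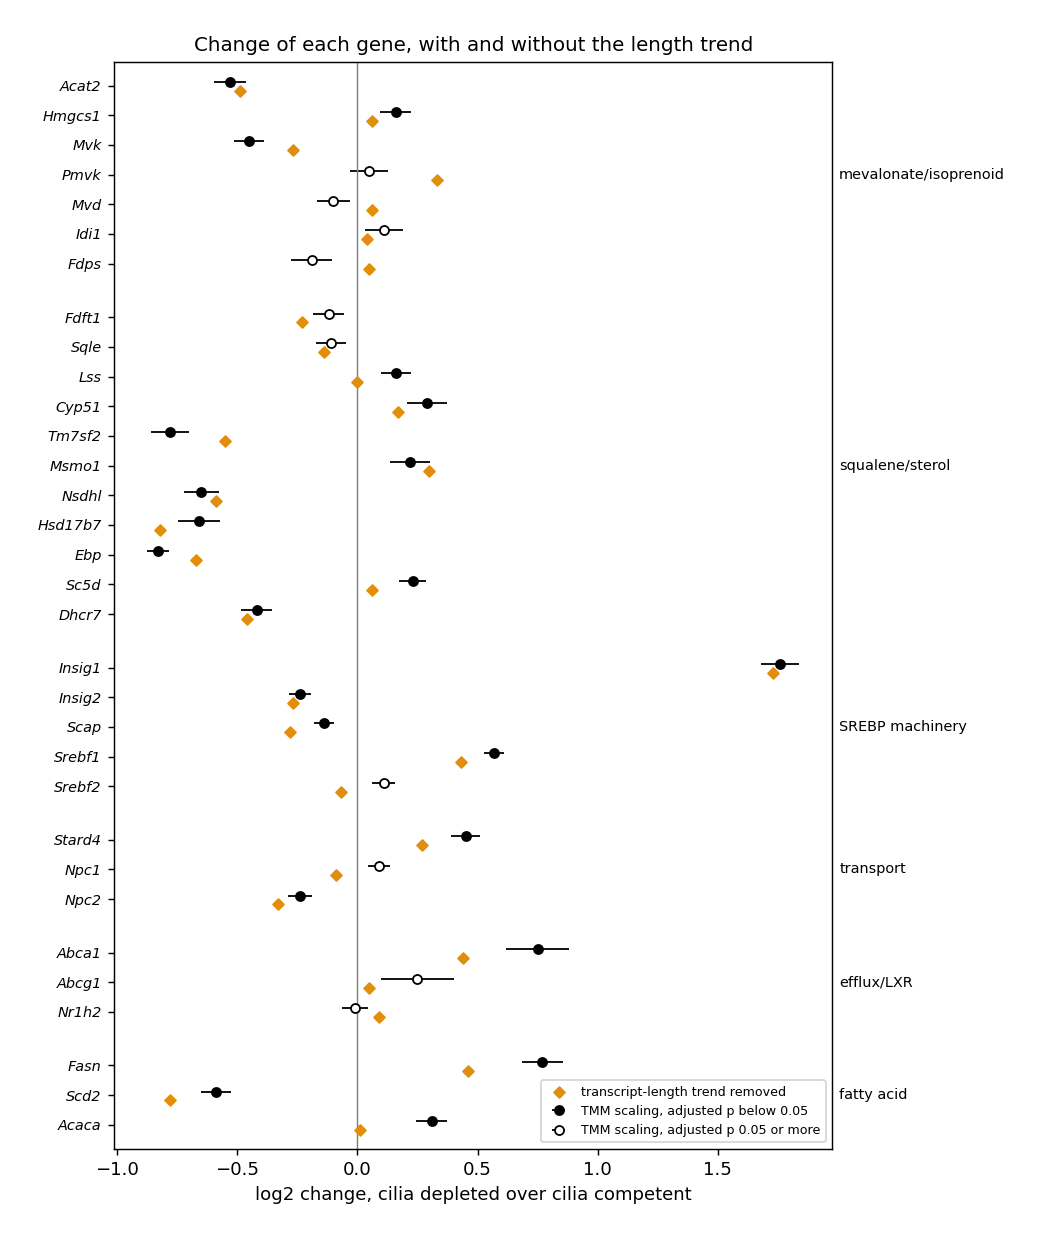
Log2 change (cilia depleted over cilia competent) of each member with its SE (circles; filled where the adjusted p was below 0.05) and with the transcript-length trend removed (orange diamonds). Insig1 lies at 1.76 and 1.73, the 5 late sterol genes that fell lie left of 0 in both, and the diamonds of Lss, Sc5d and Acaca lie at or near 0.

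The other genes of the pathway, taken from a list of 72, included more falls than rises. Among 66 tested there were 19 rises (28.8%) and 29 falls (43.9%), against 34.9% and 34.3% of all genes, and 18 were not called, and the median log2 change was -0.06. Among 9 further synthesis genes there were 3 rises, 4 falls and 2 not called. Erg28, an endoplasmic reticulum scaffold of the methyl-removing enzymes, had 10.4 ± 0.654 CPM in depleted and 20.5 ± 1.07 CPM in competent cells, a 1.97-fold fall (adjusted p = 7.23e-08). Its log2 change of -0.98 became -0.69 with the length trend removed. Cyb5r3, a cytochrome b5 reductase gene, fell 1.48-fold.

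Among 13 genes of SREBP processing and sterol-dependent degradation there were 2 rises (15.4%), 8 falls (61.5%) and 3 not called. Over all genes tested, 34.9% rose and 34.3% fell. The median log2 change of the 13 was -0.25. Erlin2, a scaffold that restrains SREBP, fell 1.74-fold, and Rnf145, a ubiquitin ligase of Scap, fell 1.72-fold. Spring1, a cofactor of the protease that cuts SREBP, rose 1.54-fold. Among 9 lipoprotein uptake genes tested there were 4 rises (44.4%), 3 falls (33.3%) and 2 not called (median log2 change 0.07). Lrp1, a large endocytic receptor gene, rose 2.38-fold, with 124 ± 8.85 CPM in depleted and 52.1 ± 14.7 CPM in competent cells (adjusted p = 4.49e-06). Its log2 change of 1.25 became 0.88 with the length trend removed. It was 1.03 without competent replicate 1, the lowest competent sample at 35.4 CPM. Mylip, a ubiquitin ligase gene and LXR target, rose 3.42-fold at a very low level, with 0.965 ± 0.192 CPM in depleted and 0.284 ± 0.136 CPM in competent cells (adjusted p = 0.000548). Among 9 LXR partners and lipoprotein genes tested there were 2 rises (22.2%), 3 falls (33.3%) and 4 not called (median log2 change 0.11). Lpcat3, a phospholipid-remodelling LXR target, fell 2.09-fold, while the LXR partner gene Rxrb rose 1.43-fold and the transporter gene Abca7 rose 1.42-fold. These lists were compared with no other list.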

How the data were processed

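Directional libraries (NEBNext Ultra II) were made from poly-A RNA, per the labels' protocols. The submitters' processing notes name cutadapt 1.16, STAR 2.7.1a and featureCounts, and the build GRCm38. Not given in the sources used here are their order, the gene annotation and the strand setting. Values the authors deposited are raw counts per gene, with each sample in its own column. Columns named WT were read as competent and KO as depleted. Symbols, coordinates and lengths came from GENCODE M21, the main transcript being the longest principal isoform. Members and lists were chosen with earlier results of these data known.

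Counts were filtered with filterByExpr, scaled by TMM and tested with edgeR 4.0.16 in R 4.3.3 (glmQLFit and glmQLFTest, group as the only term, two-sided, all 6 samples, Benjamini-Hochberg over 13839 genes, threshold 0.05). SE is the log2 change over the root of the F statistic. The code was tested on simulated counts with known changes. The named genes were all members, Wdr35, up to 3 called genes per wider list with the largest change, and the most abundant and most changed marker per cell type; any other gene was chosen after its value was seen, and some genes the rule takes are not reported here. A floor of 3 counts was 0.0797 to 0.119 CPM, covering counting error only. Replicates differed beyond sampling noise (chi-square per degree of freedom 5.35 to 9.45 within groups). Alternatives were other scalings, filters and tools (DESeq2 1.42.0, limma-voom 3.58.1), blocking by replicate number, omission of each sample, and removal of a loess trend with length (span 0.5). 0 columns were left unused.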

Additional observations from a re-analysis of the deposited data

How the results depend on the processing

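Over all alternatives, the 32 members gave 448 log2 changes, of which 402 kept their direction and their side of the threshold. DESeq2 and DESeq2-style size factors changed no member's call. Rises among members numbered 7 with the length trend removed, and 8 to 12 when a sample was left out. Over all genes tested the rises numbered 4697 with that trend removed and 4537 to 4697 when a sample was left out. Among the synthesis genes, 2 rose with upper-quartile factors, 2 with the length trend removed, and 2 to 6 when a sample was left out. The count of falls stayed within 1.5 times throughout, at 11 to 14 of 32. With the length trend removed, median log2 changes were 0.05 for the mevalonate and isoprenoid genes, -0.23 for the squalene and sterol genes, -0.07 for the SREBP machinery, -0.09 for the transport genes (0.04 with upper-quartile factors), 0.09 for the efflux genes and 0.0058 for the fatty acid genes. The sign of uncalled genes turned for Mvd (0.06), Fdps (0.05), Srebf2 (-0.07), Npc1 (-0.09) and Nr1h2 (0.09) with that trend removed, and for the uncalled marker Krt8 (0.04). It turned for Pmvk with upper-quartile factors (-0.004). Leaving out a sample gave -0.04 to 0.13 for Pmvk, -0.01 to 0.19 for Idi1, -0.06 to 0.03 for Nr1h2 and -0.16 to 0.21 for the uncalled marker Alb, which was also 0.06 with the length trend removed and 0.0043 with limma-voom. The cause of these shifts was not tested. Over all genes tested the replicate numbers showed no pairing, as deviations of same-numbered samples correlated at -0.0278, 0.0133 and -0.0155. Pairing within the members alone was not tested. With the replicate block 11 members rose and 12 fell, Fdps being the added fall (log2 change -0.20, adjusted p = 0.0157), and 5 synthesis genes rose and 8 fell. At 3 samples a group, the calls of Hmgcs1, Lss and Msmo1 were lost when some single samples were left out. That of Scap, at a log2 change of -0.14, passed whichever sample was left out.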

Other observations

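Genes that store, transfer or oxidise sterols were read as a further list. Among 13 tested there were 6 rises (46.2%), 3 falls (23.1%) and 4 not called, against 34.9% and 34.3% of all genes. Their median log2 change was 0.29. Gramd1a and Gramd1c encode carriers that move cholesterol from the plasma membrane to the endoplasmic reticulum. Gramd1a had 46.8 ± 1.73 CPM in depleted and 29.3 ± 2.19 CPM in competent cells (SD, n = 3 each), 1.60-fold higher by edgeR (adjusted p = 2.75e-07), and Gramd1c rose 1.59-fold. Cyp46a1, a cholesterol hydroxylase gene best known from neurons, was low at 0.849 ± 0.198 CPM in depleted and 0.432 ± 0.21 CPM in competent cells. Its counts were 25, 20 and 33 in depleted and 22, 8 and 16 in competent samples. Its edgeR call (adjusted p = 0.0269) did not hold when DESeq2 was used (adjusted p = 0.0673), at an unmoved log2 change of 0.97. It was also lost without competent replicate 2 (log2 change 0.66, adjusted p = 0.11), and without competent replicate 3, depleted replicate 1 or depleted replicate 3, where the log2 change was 0.95, 0.86 and 0.87 (adjusted p of 0.0691, 0.0805 and 0.088).

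Among 13 further fatty acid synthesis genes tested there were 2 rises (15.4%), 8 falls (61.5%) and 3 not called. Their median log2 change was -0.24. Over all genes tested, 34.9% rose and 34.3% fell. Mlxipl, the gene of the sugar-responsive factor ChREBP, had 7.21 ± 1.26 CPM in depleted and 3.34 ± 0.345 CPM in competent cells, a 2.14-fold rise (edgeR, adjusted p = 1.21e-05). Lpin1, a phosphatidate phosphatase gene, rose 1.96-fold. Fads2, a desaturase gene, fell 1.52-fold, with 121 ± 9.63 CPM in depleted and 184 ± 9.5 CPM in competent cells (adjusted p = 6.67e-07).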
